A study of Homo sapiens with 12 samples.

Results

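5S ribosomal RNA was read for mutations per nucleotide in a denatured control (DC) and in RNA of cells given only DMSO. The cells were PA1, a long-established human line from an ovarian teratocarcinoma. The comparison holds all 121 nucleotides of 5S among the 815 nucleotides measured in the series, and 80 of them, nucleotides 22 to 101 counted from the 5′ end, were kept for the tests. The other 41, at both ends, carried at most 0.142% mutations in any of the 4 libraries compared. The series as a whole probed the long noncoding RNA SLERT by SHAPE-MaP in the same cells, and the labels give 5S as its spike-in control.

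Each condition had 2 libraries, numbered replicate 1 and 2. DC RNA was heated to 95 °C in formamide, and whether a SHAPE reagent was then added is not stated in the labels. DMSO libraries came from cells given the solvent without reagent. Another pair of 5S libraries, from cells given the acylating reagent NAI (200 mM, 37 °C, 10 minutes), shared the fit and is named only where its values stand beside those of DC. All libraries were reverse transcribed with SuperScript II in 6 mM Mn2+, using primers for the RNA. The treatment text of every 5S sample names another condition than its title, so the condition was taken from the title and from the columns headed denatured and untreated in the deposited tables. Nothing states whether the replicates were separate cultures, so the p-values measure only how far these libraries differ, and that spread may be technical.

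5S rRNA is transcribed by RNA polymerase III and sits in the central protuberance of the large ribosomal subunit, where it is bound by the ribosomal proteins RPL5 and RPL11. RefSeq (GRCh38.p14) lists 17 RNA5S genes, all on chromosome 1 and all 121 nucleotides long, so a rate here is taken over the transcripts of many copies. The RNA folds into 5 helices around a three-way junction: helix I closes the molecule, helices II and III form one arm, and helices V and IV the other. Loops B and C belong to the first arm, and loops E and D to the second. In SHAPE-MaP, an adduct on the ribose of a flexible nucleotide is written into the cDNA as a mutation, and a denatured sample measures each nucleotide with the fold removed. A library without reagent measures the errors of copying and sequencing and any differences between gene copies.

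The mutation rate of 5S was higher in DC than in DMSO, and the difference lay far outside the spread of the replicates. Over the 80 nucleotides, summed mutations per nucleotide read were 0.360% and 0.375% in the DMSO libraries and 0.504% and 0.514% in DC. Both DC libraries stood above both DMSO libraries. Replicate 1 had a DC to DMSO ratio of 1.40 and replicate 2 one of 1.37, a mean of 1.38 ± 0.020 (SD, n = 2). Without the 2 nucleotides called lower in DC, chosen after their values were seen, the ratio was 1.55 ± 0.0063. The smallest p an exact test of 2 against 2 allows is 0.33, so these sums were not tested.

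Per nucleotide, 51 of the 80 were called higher in DC (63.8%) and 2 lower (2.5%), by edgeR's quasi-likelihood test with a Benjamini-Hochberg adjusted p under 0.05. The other 27 had log2 changes from -0.11 to 0.32. At 64 nucleotides (80% of those read) both DC libraries lay above both DMSO libraries, at 3 (3.75%) both lay below, and at 13 the groups overlapped. The median log2 change was 0.45, and 24 nucleotides at least doubled. Scaling by TMM, which assumes that most nucleotides keep their rate, shifted the median by -0.47 to -0.021 and turned the split into 29 higher and 18 lower. All 29 were among the 51, so 22 higher calls hold only for rates per nucleotide read.

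**Figure D1:**
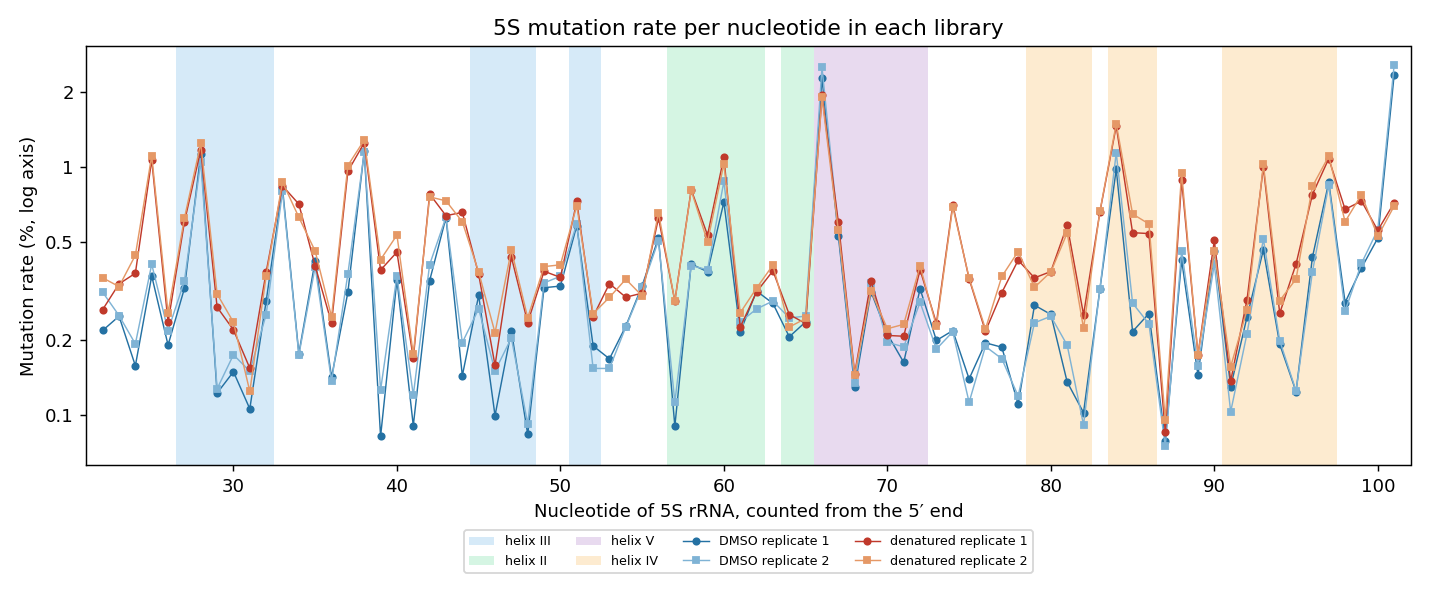
Mutation rate in percent (log axis) at nucleotides 22 to 101 of 5S in each of the 4 libraries, with lines joining neighbours and shading marking the 4 helices that could be read. The 2 libraries of a condition lie close together at most nucleotides, DC runs above DMSO over most of loop C, loop E and helix IV, and all 4 lines run together from G64 to G70 except at G66, where DC is lower.

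The changes were much alike in the 2 replicates. Across the 80 nucleotides, which are not independent and share their libraries, the log2 ratio of DC to DMSO in replicate 1 and that in replicate 2 had Pearson's r = 0.940 and Spearman's rho = 0.899. The replicates still differed by more than counting error. Their chi-square per nucleotide was 3.17 between the DMSO libraries (p = 6.14e-20) and 2.32 between the DC libraries (p = 2.46e-10). Between a DC and a DMSO library it was at least 76.1.

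**Figure D2:**
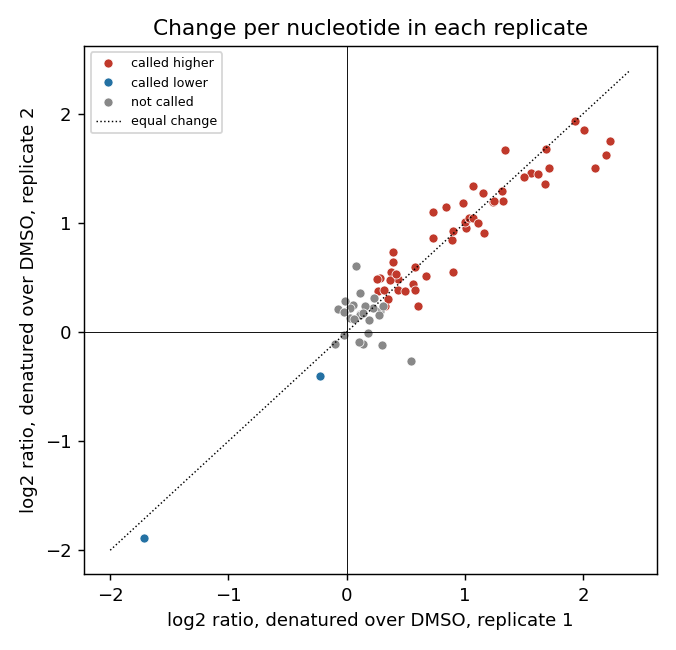
Log2 ratio of DC to DMSO in replicate 1 (horizontal) against replicate 2 (vertical), 1 point per nucleotide, coloured by its call, with a dotted line at equal change. The points follow that line (r = 0.940), with A101 alone far below 0 in both replicates.

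The 12 nucleotides with the largest log2 change among those called higher were C39, C78, C34, C44, G81, A74, C95, G37, C57, G25, G75 and G48. The list was limited to nucleotides whose DC libraries both lay above both DMSO libraries. The 12 held 6 C, 5 G, 1 A and no U. Loop C had 4 of them, loop E 3, helix IV 2, and loop B, helix II and helix III 1 each. So 8 of the 12 are unpaired in the conserved structure, against 39 of all 80. Their fold changes ran from 2.77 to 3.99, and the highest adjusted p was 1.18e-09 (edgeR). With DC and DMSO fitted alone, without the NAI libraries, the highest was 0.000138, at C39 (edgeR). Each of the 12 was called higher in all 12 alternative fits, TMM scaling included.

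**Figure D3:**
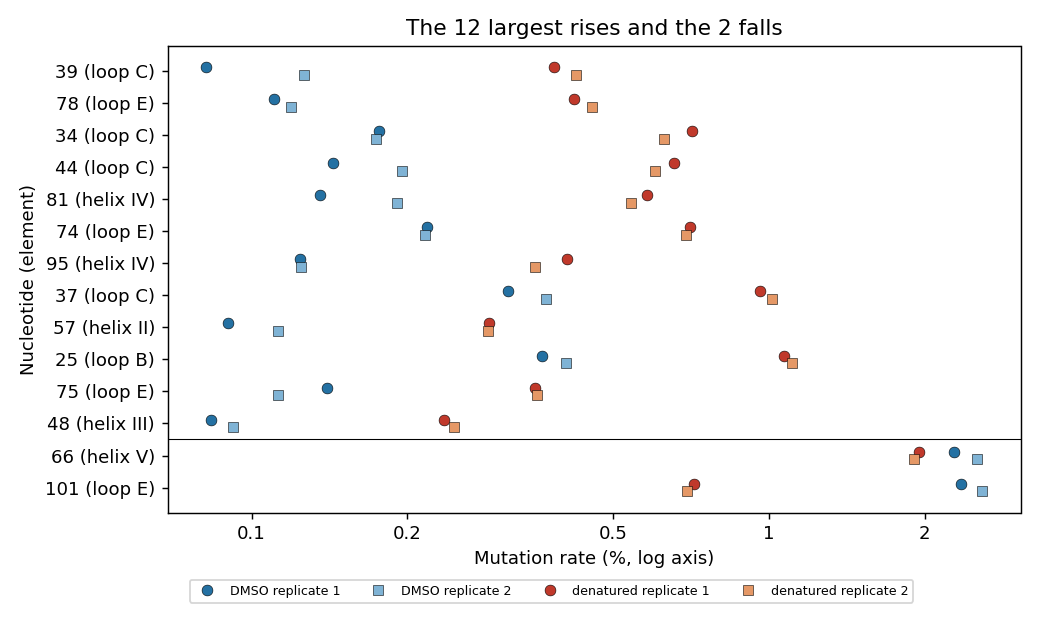
Mutation rate in percent (log axis) in each library for the 12 nucleotides with the largest rise and, under the line, the 2 called lower, G66 and A101. In all 12 both DC libraries lie to the right of both DMSO libraries, which the selection of the 12 required. In the other 2 both lie to the left.

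Loop C, the hairpin loop at the tip of helix III, held the largest change and alternated between rising and flat nucleotides. C39 had rates of 0.0818% and 0.126% in the DMSO libraries and 0.384% and 0.423% in DC. The DC libraries lay well above DMSO, although the DMSO libraries differed from each other by more than those of DC. Its log2 change was 1.997 (SE 0.16, adjusted p = 8.79e-12 by edgeR). C34 had 0.177% and 0.174% in DMSO against 0.709% and 0.627% in DC, for a log2 change of 1.93 (SE 0.12). C44 had 0.144% and 0.196% in DMSO against 0.656% and 0.601% in DC, for a log2 change of 1.91 (SE 0.13). At these 3 cytosines the groups stood apart by several times their own spread. G37, from a higher start, had 0.312% and 0.371% in DMSO against 0.961% and 1.01% in DC, for a log2 change of 1.54 (SE 0.091).

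The uracils of loop C did not follow. Of its 12 nucleotides 8 were called higher (66.7%, near the 63.8% of all 80). These are 7 of the 7 that are not U and 1 of the 5 that are. U38 had the third highest DMSO rate of the RNA, 1.16% and 1.15%, and 1.25% and 1.28% in DC, for a log2 change of 0.14 (SE 0.070, adjusted p = 0.0828 by edgeR). U35 overlapped between the groups, with 0.419% and 0.396% in DMSO and 0.399% and 0.458% in DC. U33 and U43 were not called either, and U40 was, with a log2 change of 0.47. The median log2 change was 1.54 for the nucleotides of loop C that are not U and 0.13 for its U, against 0.45 over all 80. With TMM scaling 5 of the 7 were called higher, and 4 of the 5 U were called lower, against 29 higher and 18 lower of all 80.

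Loop B, the internal loop between helices II and III, had 6 of 9 nucleotides called higher (66.7%), close to the 63.8% of all nucleotides read. G25 rose the most of all in percentage points. It had 0.363% and 0.405% in DMSO against 1.07% and 1.11% in DC, for a rise of 0.704 points and a log2 change of 1.51 (SE 0.085, adjusted p = 4.76e-15 by edgeR). Its neighbour C24 went from 0.158% and 0.193% to 0.373% and 0.441%. Both are on the 5′ side of the loop, beside A22 and C26, which were not called. On the 3′ side A55 was the 1 nucleotide of loop B with a lower rate in DC, at 0.332% and 0.327% in DMSO and 0.310% and 0.302% in DC. The groups did not overlap there, and the log2 change of -0.11 was not called (edgeR adjusted p = 0.419), though with TMM scaling it was (log2 change -0.58).

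Helix III, which carries loop C, had 10 of 12 nucleotides called higher (83.3%, against 63.8% of all 80). The median rate of the helix rose from 0.197% ± 0.010 in DMSO to 0.328% ± 0.010 in DC (SD, n = 2). All 6 nucleotides of its 3′ strand were called, and 4 of 6 of its 5′ strand. G48 changed the most, from 0.0833% and 0.0919% in DMSO to 0.236% and 0.246% in DC, for a log2 change of 1.47 (SE 0.15). C28 of the same helix had a high rate in both conditions, 1.13% and 1.05% in DMSO against 1.17% and 1.25% in DC, and was not called (log2 change 0.14, edgeR adjusted p = 0.0765). Both nucleotides were called in 4 of the 6 pairs of the helix and 1 nucleotide in the other 2. With TMM scaling 4 nucleotides of helix III were called higher and 1, C28, lower, against 29 and 18 of all 80.

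Of helix II, which joins loop B to the junction, only the 3′ strand could be read. Of its 8 nucleotides 4 were called higher (50%, against 63.8% of all 80). The 4 called nucleotides are C57, A58, G59 and G60, the end of the strand next to loop B. C57 had 0.0901% and 0.112% in DMSO against 0.288% and 0.287% in DC, for a log2 change of 1.52 (SE 0.16, adjusted p = 1.18e-09 by edgeR). A58 doubled, from 0.406% and 0.4% to 0.810% and 0.804%. G61, U62, G64 and G65, nearer the junction, were not called, with log2 changes from -0.023 at G65 to 0.12 at U62. With TMM scaling the balance turned, with 2 nucleotides of the strand called higher and these 4 lower, against 29 and 18 of all 80. On the opposite strand C19 and G21 lay in the stretch of low rates at the 5′ end and were called in a fit of 120 nucleotides, in which 52 were higher (43.3%) and 2 lower (1.67%). C19 had 41 and 25 mutations in the DMSO libraries and 143 and 105 in DC, and in that structure C19 pairs with G59.

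Helix IV, the distal helix of the other arm, had 12 of 14 nucleotides called higher (85.7%, against 63.8% of all 80), close to the share in helix III. Both DC libraries lay above both DMSO libraries at all 14, and at 64 of all 80. With U79, U80, U96 and G97, the U-G and U-U positions next to loop E, counted as part of that loop, 8 of 10 were called (80%). The U-G pair U84-G93 stayed in the helix. The median rate of the helix was 0.251% and 0.234% in DMSO and 0.472% and 0.460% in DC. G81 had 0.136% and 0.191% in DMSO against 0.582% and 0.542% in DC, for a log2 change of 1.81 (SE 0.14, adjusted p = 2.46e-12 by edgeR). Its partner C95 had 0.124% and 0.125% in DMSO against 0.406% and 0.354% in DC, for a log2 change of 1.61 (SE 0.15). The log2 changes of the 2 partners differed by less than the sum of their SEs. G93 had the third largest rise of all nucleotides in points, 0.523, from 0.463% and 0.512% to 0.998% and 1.02%.

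The strands of helix IV differed in size. All 7 nucleotides of the 5′ strand were called, with a median log2 change of 1.20, and 5 of 7 of the 3′ strand, with a median of 0.48. C91 and C92, which pair with G86 and G85 next to loop D, were not called (log2 changes 0.32 and 0.26), while G86 and G85 were (1.20 and 1.27). C92 was called with the replicate number as a block and without DMSO replicate 1. The longest unbroken stretch of called nucleotides, from A77 to G86, runs from loop E through this 5′ strand and the bulged A83. With TMM scaling 7 nucleotides of helix IV were called higher and none lower, against 29 and 18 of all 80.

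In loop D, the hairpin loop of helix IV, 1 of 4 nucleotides was called higher (25%, against 63.8% of all 80). A88 had 0.421% and 0.459% in DMSO against 0.884% and 0.947% in DC, for a log2 change of 1.06 (SE 0.082, adjusted p = 2.46e-12 by edgeR). The other 3, G87, G89 and A90, had log2 changes from 0.15 to 0.23. G87 had the lowest DMSO rate of the 80, 0.0787% and 0.0747%, and 0.0849% and 0.0958% in DC. Its 95% Wilson intervals reached from 0.0594% to 0.0941% in DMSO and from 0.0705% to 0.114% in DC, so a difference of this size was not resolved. A88 was also higher with NAI than with DMSO.

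Of the 4 bulged nucleotides, A83 and C63 were called higher (50%, against 63.8% of all 80) and A49 and A50 were not. A83, in the 5′ strand of helix IV, had 0.321% and 0.322% in DMSO against 0.658% and 0.662% in DC, for a log2 change of 1.04 (SE 0.091). The replicates of each condition almost coincided there. C63, in helix II, had 0.282% and 0.288% in DMSO against 0.381% and 0.402% in DC, for a log2 change of 0.46 (SE 0.12, adjusted p = 0.00132 by edgeR). The adjacent A49 and A50 of helix III changed by 0.22 and 0.14 on the log2 scale, between called nucleotides on either side.

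Loop E, the internal loop of the second arm, known for its non-canonical pairs, had a median log2 change of 0.91 and held both strong rises and the largest fall of the RNA. With U79, U80, U96 and G97 counted in the loop its median was 0.75, and that of helix IV without them was 1.13, so which of them ranks higher depends on where these positions are placed. Of its 10 nucleotides that could be read, 6 were called higher (60%, near the 63.8% of all 80) and 1 lower. C78 had 0.110% and 0.119% in DMSO against 0.420% and 0.456% in DC, for a log2 change of 1.94 (SE 0.14, adjusted p = 1.06e-12 by edgeR). A74 had 0.219% and 0.216% in DMSO against 0.705% and 0.691% in DC, for a log2 change of 1.68 (SE 0.10). G75, next to it, had 0.140% and 0.112% in DMSO against 0.354% and 0.357% in DC, for a log2 change of 1.48 (SE 0.15). U73 and U76, beside these risers, were not called, with log2 changes of 0.26 and 0.19. With TMM scaling 6 nucleotides of the loop were called higher and 2, A100 and A101, lower, against 29 and 18 of all 80. On the 3′ side G98 and G99 rose, from means of 0.273% and 0.4% in DMSO to 0.638% and 0.751% in DC.

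A101 of loop E, the last nucleotide kept, fell to 0.287 times its DMSO rate. It had 2.36% and 2.58% in DMSO, the highest rates of all 80 nucleotides, and 0.717% and 0.696% in DC, with 3586 and 2520 mutations against 925 and 961. The log2 change was -1.80 (SE 0.076, adjusted p = 5.11e-18 by edgeR), and it was called lower in all 12 alternative fits. Its neighbour A100 overlapped between the groups, at 0.516% and 0.559% in DMSO and 0.555% and 0.525% in DC. In the NAI libraries A101 stood at 2.37% on average, near its DMSO rate. Summed over loop E, the DC rate was 1.05 ± 0.033 times the DMSO rate (SD, n = 2) with A101 and 1.89 ± 0.019 times without it.

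Helix V, between loop E and the junction, had the lowest median log2 change of the helices, 0.088, next to 0.27 in helix II. By the ratio of median rates, 1.11 in helix V and 1.13 ± 0.066 in helix II (SD, n = 2), the 2 did not differ beyond the spread. Only the 5′ strand of helix V could be read. Of its 7 nucleotides 2 were called higher (28.6%, against 63.8% of all 80), G71 and U72, and 1 lower. G71 lay just inside the threshold (log2 change 0.33, adjusted p = 0.0489 by edgeR). U72 had 0.323% and 0.285% in DMSO against 0.385% and 0.399% in DC, for a log2 change of 0.36 (SE 0.12, adjusted p = 0.0072 by edgeR). This call was lost without DC replicate 2 (adjusted p = 0.0793), without DMSO replicate 2 (adjusted p = 0.103) and with TMM scaling (log2 change -0.11, adjusted p = 0.44). That scaling left no nucleotide of helix V called higher and called 4 of the 7 lower, against 29 and 18 of all 80. G66, at the junction end of the helix, had the second highest DMSO rate, 2.28% and 2.52%, and 1.95% and 1.91% in DC, for a log2 change of -0.32 (SE 0.072, adjusted p = 0.00029 by edgeR). Its groups did not overlap, but the DC libraries lay closer to the DMSO ones than at A101. The longest stretch without a higher call runs from G64 to G70, through the end of helix II and most of helix V, with a median log2 change of 0.077.

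**Figure D4:**
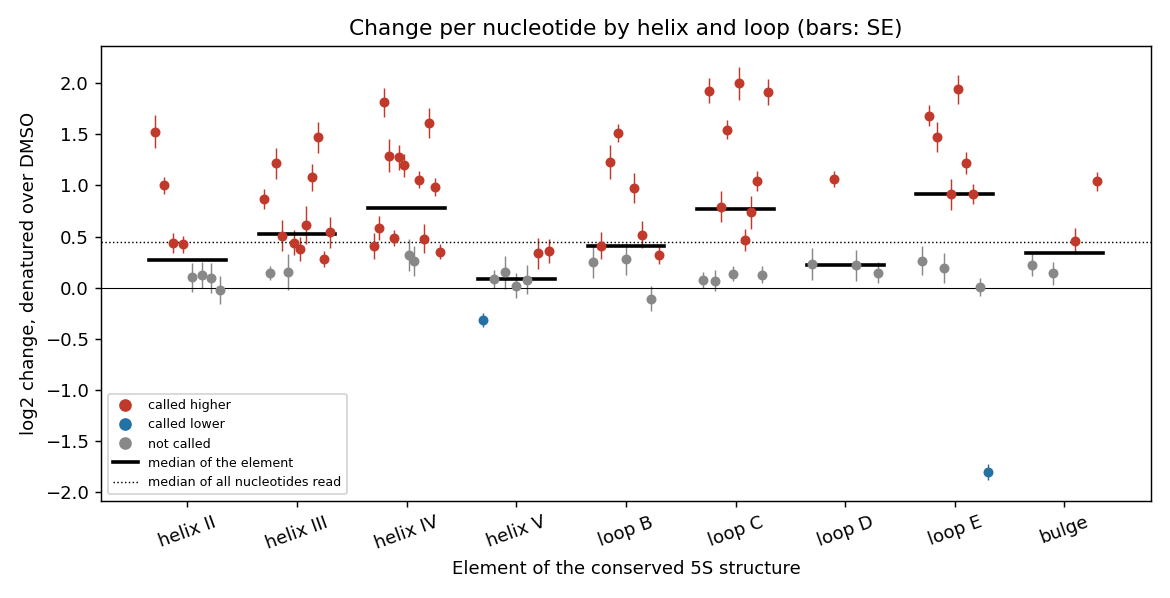
Log2 change of DC over DMSO for each of the 80 nucleotides, grouped by helix, loop and bulge and ordered along the RNA within each group, with bars for the SE of the test, thick lines for the median of the group and a dotted line for the median of all (0.45). The medians of helix V, helix II, loop D, loop B and the bulges lie below the dotted line. Those of helix III, helix IV, loop C and loop E lie above it. Single nucleotides depart from their group, such as C57 of helix II above the line and A101 of loop E far below it.

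Set by base, every ratio of DC to DMSO lay above 1, and the order of the bases depended on the summary. C had summed rates of 0.221% and 0.228% in DMSO against 0.379% and 0.388% in DC, a ratio of 1.71 ± 0.0092 (SD, n = 2). G had 0.360% and 0.388% in DMSO against 0.561% and 0.566% in DC, a ratio of 1.51 ± 0.067. U went from 0.446% and 0.438% to 0.547% and 0.566%, a ratio of 1.26 ± 0.046, and A from 0.450% and 0.474% to 0.516% and 0.525%, a ratio of 1.13 ± 0.027. The DC libraries lay above the DMSO libraries for every base. The ratio of A rests on A101, and without it was 1.55 ± 0.0097, while that of G without G66 was 1.72 ± 0.060, level with C. By median rates G had a ratio of 2.22 ± 0.18, C 1.90 ± 0.11, A 1.32 ± 0.042 and U 1.22 ± 0.032. C and G thus stood above A and U by median rates, and by summed rates with both lower nucleotides left out or both kept in.

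In counts, 14 of 20 C were called higher (70%), 20 of 28 G (71.4%), 9 of 16 A (56.2%) and 8 of 16 U (50%), against 63.8% of all. Of the 24 nucleotides that at least doubled, 11 were G, 8 C, 5 A and none U. The median log2 change was 0.58 for C, 0.59 for G, 0.43 for A and 0.31 for U. With TMM scaling 13 of 28 G, 8 of 20 C, 6 of 16 A and 2 of 16 U were called higher, against 29 of all 80. Called lower were 5 G, 2 C, 5 A and 6 U, against 18 of all 80. These classes were not tested against each other, since nucleotides are not replicates.

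**Figure D5:**
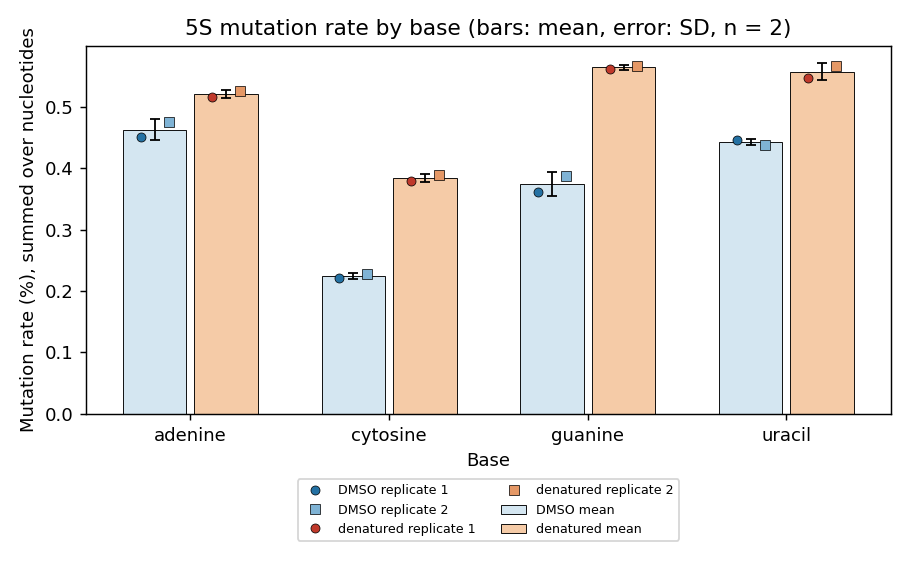
Summed mutation rate in percent by base, with bars for the mean of 2 libraries, error bars for the SD and points for the single libraries of DMSO and DC. Every pair of DC points lies above the DMSO points of that base, and C starts lowest, at 0.221% and 0.228%.

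Within a base, paired and unpaired nucleotides were set side by side, with 63.8% of all 80 called higher. Of the unpaired C, 7 of 8 were called higher with a median log2 change of 1.57, and of the paired C 7 of 12 with a median of 0.49. Unpaired U had 2 of 8 called higher with a median of 0.17, and paired U 6 of 8 with a median of 0.39. With TMM scaling 1 of 8 U was called higher in each class, with 4 unpaired and 2 paired U lower. The contrast in higher calls of U was thus lost, while the medians kept their order, -0.31 for unpaired and -0.080 for paired U. Of the C, that scaling called 5 of 8 unpaired higher and none lower, and 3 of 12 paired higher and 2 lower. Unpaired G had 7 of 9 called and a median of 0.91, and paired G 13 of 19 with a median of 0.42. Unpaired A had 7 of 14 called higher with a median of 0.33, and paired A 2 of 2 with a median of 0.72. Over all bases 28 of 41 paired nucleotides were called higher (68.3%) and 23 of 39 unpaired (59%), with medians of 0.43 and 0.47. With TMM scaling the order of the shares turned, to 13 of 41 paired and 16 of 39 unpaired called higher, with 9 lower in each class. The classes are small, and these contrasts were drawn up after the values had been seen.

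The base that follows also went with the size of the change at C, a pattern noticed in the values and not tested. Of the 7 C followed by U, 6 were called higher with a median log2 change of 1.91. The other 13 C had 8 called and a median of 0.48. The 7 hold C34, C39, C44, C78 and C95, and also C52 of helix III (log2 change 0.54, called) and C68 of helix V (0.15, not called). C34, C39, C44 and C78 are also unpaired, so this grouping overlaps with that of unpaired C, and the groupings were not separated. In SLERT, read in other libraries of the same series, the 59 C followed by U between its low ends had median log2 ratios of DC to DMSO of 0.64 and 0.62 in the 2 replicates. The 67 C followed by C had 0.43 and 0.46, the 50 followed by A 0.34 and 0.42, and the 14 followed by G 0.58 and 0.71. In SLERT, C before U thus stood above C before C and C before A in both replicates, but below C before G in replicate 2. A median over all other C was not computed for SLERT, and the difference between the RNAs was not tested.

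The ratio by base was also computed for SLERT. Over its 654 nucleotides between the low ends, C had a ratio of DC to DMSO of 1.47 ± 0.035 (SD, n = 2), G 1.24 ± 0.016, U 1.22 ± 0.012 and A 1.05 ± 0.013. For C, G and A the 5S ratios were higher by more than the SDs, and for U the gap lay within the SD of 5S. In summed rates C was highest and A lowest in both RNAs, but in 5S C led only with G66 included and A was lowest only with A101 included. SLERT G and U had ratios of 1.25 and 1.21 in replicate 1 and 1.23 and 1.23 in replicate 2, so those neighbours did not differ beyond their spread. The ratio over all SLERT bases was 1.20 ± 0.0074, against 1.38 ± 0.020 in 5S.

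The NAI libraries stayed near DMSO at most nucleotides that rose in DC. Against the same DMSO libraries, 4 nucleotides were higher with NAI (5%) and 1 lower (1.25%). NAI replicate 2 was the shallowest 5S library, with a median effective depth of 35807 reads. The numbers of calls with NAI and in DC are therefore not from like depths. Since both comparisons use the same DMSO libraries, the values are given side by side. A83 had a mean of 0.560% with NAI, between 0.321% in DMSO and 0.660% in DC. A88 had 0.611% with NAI, between 0.440% and 0.915%. C39 had 0.157% with NAI, nearer to its 0.104% in DMSO than to its 0.403% in DC. At C63 the NAI mean, 0.419% ± 0.083 (SD, n = 2), and the DC mean, 0.392% ± 0.015, differed by less than the NAI spread. The 1 lower nucleotide, U96 of helix IV, had 0.314% with NAI, 0.405% in DMSO and 0.804% in DC.

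The DC rate is also the divisor in the authors' reactivity, the NAI rate minus the DMSO rate over the DC rate. Among the 80 nucleotides its mean ranged from 0.0903% at G87 to 1.93% at G66, a span of 21.3-fold, against 32.2-fold for the DMSO rate. G25, G37, G93 and A88, with DC rates of 1.09%, 0.987%, 1.01% and 0.915%, are thus divided by far more than C57, G48 or G87. At A101 the divisor is lower than either rate in the numerator.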

How the data were processed

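SHAPE-MaP of 5S and SLERT was deposited as 1 table per RNA and replicate, with 12 libraries in 6 groups of 2 by RNA and condition. Per the file headers, each nucleotide has counts of mutations and of reads, all and effective, in each library, and replicates were not pooled. The deposited rate is a fraction, equal to mutations over effective depth within 5e-07, and the deposited reactivity is a score made from the 3 rates of a replicate. The submitters' processing notes name bcl2fastq 2.17.1.14. What aligned the reads and counted mutations is not given in the sources used here.

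Median effective depth was 153048 and 97776 reads in DMSO and 130140 and 138090 in DC, so 3 mutations at the median depth are at most 0.00307%. In the NAI libraries it was 113040 and 35807 reads. The labels name PCR and no molecular identifiers, so intervals cover counting error only.

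Mutation counts of nucleotides 22 to 101 were fitted with edgeR 4.0.16 (R 4.3.3), quasi-likelihood, with log effective depth as offset, all 6 libraries of 5S in 1 fit (prior degrees of freedom 24.6), two-sided, Benjamini-Hochberg over 80 nucleotides, threshold 0.05. SE was computed as |log2 change| / sqrt(F). The test was tested on simulated data. DESeq2 1.42.0 and limma 3.58.1 were alternatives. Helices and loops follow the conserved structure with 37 pairs, written by hand. Nucleotides named are the 12 largest called rises, the 6 largest in points, all called lower, the largest and smallest change of each element and the 3 highest DMSO rates. The 12 were taken only where both DC libraries lay above both DMSO libraries. Other nucleotides complete a helix, loop or base class and were chosen after their values were seen. Members, lists and the stretch kept were chosen with earlier results of these data known. The sequence of the RNA is not reported here.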

Additional observations from a re-analysis of the deposited data

Results flagged for a closer look

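C19 and G21, on the strand of helix II that lies in the stretch of low rates at the 5′ end, had a signal in DC above the DMSO control although they were outside the main tests. C19 had a mean of 0.0927% in DC and 0.0262% in DMSO (log2 change 1.81, SE 0.38, edgeR adjusted p = 1.04e-05 over 120 nucleotides). G21 had 0.137% in DC and 0.0672% in DMSO (log2 change 1.06, edgeR adjusted p = 5.33e-05). At both, each DC library lay above each DMSO library. The fit of 120 nucleotides had infinite prior degrees of freedom, against 24.6 in the main fit. Why the ends carry so few mutations was not tested. In the NAI libraries, which share the fit but are not part of the contrast of DC with DMSO, 4 nucleotides stood above DMSO in the main fit of 80. They are A83 at 0.560% with NAI (1.76-fold, edgeR adjusted p = 4.05e-07), A88 at 0.611% (1.39-fold, adjusted p = 0.000577), C63 at 0.419% (1.42-fold, adjusted p = 0.0158) and C39 at 0.157% (1.56-fold, adjusted p = 0.0433). What sets these apart was not tested.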

How the results depend on the processing

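Scaling moved the counts of calls the most. TMM made the counts 29 higher and 18 lower and the median log2 change -0.021. It reversed C28 (-0.33), U35 (-0.40), U38 (-0.33), A50 (-0.33), U72 (-0.11), A90 (-0.32) and C92 (-0.21), none of which except U72 had been called. DESeq2, limma, read depth as the denominator, 10 mutations as a minimum, DC and DMSO fitted alone, and the fit of all 120 nucleotides gave 50 to 52 higher and 2 lower. With all 120 the median log2 change was 0.36. DC and DMSO fitted alone left fewer prior degrees of freedom, 3.98 against 24.6. Adjusted p-values of the named nucleotides that were called were then higher, such as 0.000138 at C39 and 1.49e-05 at A101 (edgeR). The replicate number as a block (replicate block) gave 53 higher and 2 lower with a median of 0.45. The deviations of same-numbered DC and DMSO libraries correlated at r = 0.168, which with 2 pairs cannot decide on pairing. Same-numbered libraries did share features. The effective share of reads in DMSO, DC and NAI was 97.15%, 97.05% and 97.14% in replicate 1. In replicate 2 it was 98.10%, 97.97% and 98.15%. U112, outside the main tests, had 0.0494%, 0.0527% and 0.0634% in replicate 1 and 0%, 0% and 0.00557% in replicate 2. G21 instead had higher rates in replicate 2 of DMSO and DC. The main fit leaves the replicate number out, and the source of these features was not tested. Leaving out 1 library gave 44 to 52 higher, 2 lower and a median of 0.42 to 0.48. It moved G65 over a range of -0.064 (without DMSO replicate 1) to 0.013 (without DMSO replicate 2), with 0.0091 without DC replicate 1, and U35 over -0.035 (without DC replicate 2) to 0.164 (without DC replicate 1), with no call. The ratio of summed rates was 1.37 to 1.40 in single replicates and 1.55 without the 2 lower nucleotides, an alternative chosen after seeing the data. For helices and loops, summed in place of median rates moved the ratio of DC to DMSO in every element: from 2.38 to 1.05 in loop E, 1.92 to 1.72 in helix IV, 1.81 to 1.60 in loop C, 1.67 to 1.41 in helix III, 1.44 to 1.58 in loop B, 1.13 to 1.39 in helix II, 1.16 to 1.51 in loop D, 1.20 to 1.41 in the bulges and 1.11 to 0.934 in helix V. Median in place of summed rates moved G from 1.51 to 2.22, C from 1.71 to 1.90 and A from 1.13 to 1.32. Counting U79, U80, U96 and G97 as part of loop E moved the median ratio of helix IV from 1.92 to 2.24 and of loop E from 2.38 to 1.93. Counting G66 as unpaired moved that of helix V from 1.11 to 1.10. The U-G pairs U84-G93 and U69-G106 were left as pairs. The causes were not tested.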
